A study of Mus musculus with 6 samples.

Results

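The cell cycle and DNA replication genes were followed in bulk RNAseq of BMDM, macrophages grown from mouse bone marrow. The genes were taken from a fixed list of 51 gene symbols, and all 51 were among the 16978 genes of the table. Of these, 20 act at the G1/S transition and in S phase, 29 act in mitosis, and 2, Ccnd1 and Cdkn1a, act in G1 and were kept apart. Bone marrow of wild type C57BL/6 mice was cultured with 25 ng/ml M-CSF, and the cells were taken on day 7. They were treated with 200 ng/ml IL17B for 6 hours, or with PBS as the control, and each treatment had 3 libraries, called IL17B 1 to 3 and PBS 1 to 3. By edgeR, no cell cycle gene was higher or lower with IL17B at an adjusted p of 0.05, where 0% of all 13866 genes tested were. The values of most of them moved together from library to library. PBS 1 and IL17B 3 were the highest library of their treatment for nearly all of the 51. The lowest of the 6 libraries was most often PBS 2, followed by IL17B 2.

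M-CSF makes macrophages of the bone marrow divide, so a BMDM culture holds cycling cells beside resting ones. In late G1 the E2F factors switch on the genes that load the replicative helicase, supply nucleotides and copy DNA. Mitotic genes are switched on later, in G2, largely through the MuvB complexes with B-Myb and FoxM1, which act at a short promoter element called the cell cycle genes homology region. In bulk RNA, fewer cycling cells and less RNA per cycling cell cannot be told apart.

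The promoters of S phase and mitotic genes held these elements in different shares, and 5 sequences are given as examples. Of the 51 genes, 41 matched a RefSeq promoter window (GRCm38.p6, 250 bases before to 50 bases after the start site), which gave 46 windows. Both strands were searched for the homology region (TTTGAA or TTCGAA), the CCAAT box (CCAAT) and an E2F site (TTTCCCGC, TTTCGCGC, TTTGCCGC or TTTGGCGC). In 1 of the 46 windows, matches of different elements shared a base. The homology region was in 22 of 26 mitotic windows (84.6%) and in 3 of 18 S phase windows (16.7%), beside 19.2% of all 32851 windows of the same length. The E2F words were in 1 mitotic window (3.85%), that of Cdk1, and in 7 S phase windows (38.9%), beside 2.26% of all windows. The CCAAT box was in 84.6% of the mitotic and 66.7% of the S phase windows, beside 37.4% of all windows. A match is a run of letters and not a measured site. The sequences below lie within 160 bases before the start site, stop before the first annotated exon, run 5′ to 3′ on the gene's strand and have every match in capitals. They were chosen after the search, because they hold clear examples of each kind.
Mki67 (chr7:135716451-135716539, minus strand): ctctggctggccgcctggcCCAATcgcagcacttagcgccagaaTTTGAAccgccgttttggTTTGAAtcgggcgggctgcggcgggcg
Top2a (chr11:99024200-99024349, minus strand): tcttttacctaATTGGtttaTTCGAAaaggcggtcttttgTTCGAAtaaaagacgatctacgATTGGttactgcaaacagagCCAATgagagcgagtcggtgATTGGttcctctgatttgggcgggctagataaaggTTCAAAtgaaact
Cdk1 (chr10:69352939-69353072, minus strand): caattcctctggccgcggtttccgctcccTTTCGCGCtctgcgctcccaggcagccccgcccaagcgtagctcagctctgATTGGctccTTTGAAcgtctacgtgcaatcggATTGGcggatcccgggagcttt
Mcm5 (chr8:75109349-75109467, plus strand): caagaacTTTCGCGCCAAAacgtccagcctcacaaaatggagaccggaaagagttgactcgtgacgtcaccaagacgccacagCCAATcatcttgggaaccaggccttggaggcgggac
Mcm6 (chr1:128359706-128359865, minus strand): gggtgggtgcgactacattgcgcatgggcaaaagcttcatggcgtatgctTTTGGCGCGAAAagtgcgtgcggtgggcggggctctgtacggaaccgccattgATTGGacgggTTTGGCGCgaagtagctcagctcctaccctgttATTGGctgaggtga
In Mki67 the homology region words begin 116 and 98 bases before the start site. In Cdk1 a word begins 71 bases before it, with an E2F word at 131 bases. A further homology region word of Cdk1, at 15 bases, lies outside the sequence shown. In Mcm5 and Mcm6 a pair of E2F words on opposite strands share bases, so that they appear as a single run of capitals.

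The 6 libraries held between 20271411 and 20653322 estimated counts, and the cell cycle genes took 0.209% to 0.301% of them. Each cell cycle gene had between 76 and 6502 counts in a library, for which counting alone gives a CV between 11.5% and 1.24%. The 18 macrophage markers were detected in every library, at a summed 44538 to 47475 CPM (counts scaled to the normalized size of the library). Hepatocyte markers set libraries apart: their 14 genes summed to 1.03, 233 and 83.2 CPM in IL17B 1, 2 and 3, against 1.02, 1.16 and 1.32 CPM in PBS 1, 2 and 3. All 14 were detected in IL17B 2 and 3, and 3 or 4 of them in each other library. Monocyte markers summed to 36.7 to 37.8 CPM with IL17B, against 25.5 to 29.8 CPM with PBS, and fibroblast markers to 38.1 to 41.7 CPM, against 44.3 to 63.9 CPM. Of the 8 monocyte and 10 fibroblast markers, 7 and 9 had enough counts to enter. Among those that entered, 7 monocyte and 8 or 9 fibroblast markers were detected in each library. Neutrophil markers summed to 16.5 to 18.8 CPM with IL17B and 15.1 to 18.0 CPM with PBS, and lymphocyte markers to 12.5 to 15.4 CPM and 12.5 to 16.0 CPM. Erythroid markers, of which 3 had enough counts to enter, summed to 0.147, 1.17 and 0.829 CPM in IL17B 1, 2 and 3. With PBS they summed to 0.340 to 0.392 CPM. At these low levels too, IL17B 2 and 3 were the highest libraries. Markers of blood progenitors, which also divide in such cultures, summed to 23.2 to 24.2 CPM with IL17B and 23.0 to 27.5 CPM with PBS. Of the 12 progenitor markers, 7 had enough counts to enter, and 6 or 7 of these were detected in each library. The sum does not show the single markers. For 3 of the 7, every IL17B library was lower than every PBS library, beside 4.77% of all genes, and for 0 every one was higher. Their edgeR log2 fold changes, IL17B over PBS, ran from -1.99 to 0.15, with 3 above 0 and 4 below. By edgeR, 0 of the 7 reached an adjusted p of 0.05, where 0% of all genes did. The part of these cells in the values below was not tested.

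IL17B was compared with PBS by edgeR's quasi-likelihood test over 13866 genes, with Benjamini-Hochberg adjustment over all of them. All 51 cell cycle genes passed the filter on low counts, and 0 of 51 were called at an adjusted p of 0.05, where 0% of all genes were called. DESeq2 called none of the 51 either, and 0.0433% of all genes, and limma-voom called 0% of all genes. At an unadjusted p under 0.05, 0 cell cycle genes were higher, beside 2.96% of all genes, and 1 was lower, beside 2.28% of all genes. The CPM values of the 3 IL17B and the 3 PBS libraries overlapped for 50 of the 51. For 1 gene every IL17B library was lower than every PBS library, beside 4.77% of all genes, and for none was every IL17B library higher, beside 5.16% of all genes. Both counts of 1 are the same gene, Cdt1. The log2 fold changes, IL17B over PBS, ran from -0.29 (Cdc6) to 0.11 (Plk1), with 20 above 0 and 31 below. The median was -0.05 over the S phase genes and -0.01 over the mitotic genes, beside 0.00034 over all genes tested. Their SE lay between 0.06 and 0.24, with a median of 0.15, beside 0.08 for all genes. Changes of the size of the SE, and also larger ones, could not be detected: Cdt1, at -0.20 with an SE of 0.08, had an edgeR adjusted p of 0.941.

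**Figure D1:**
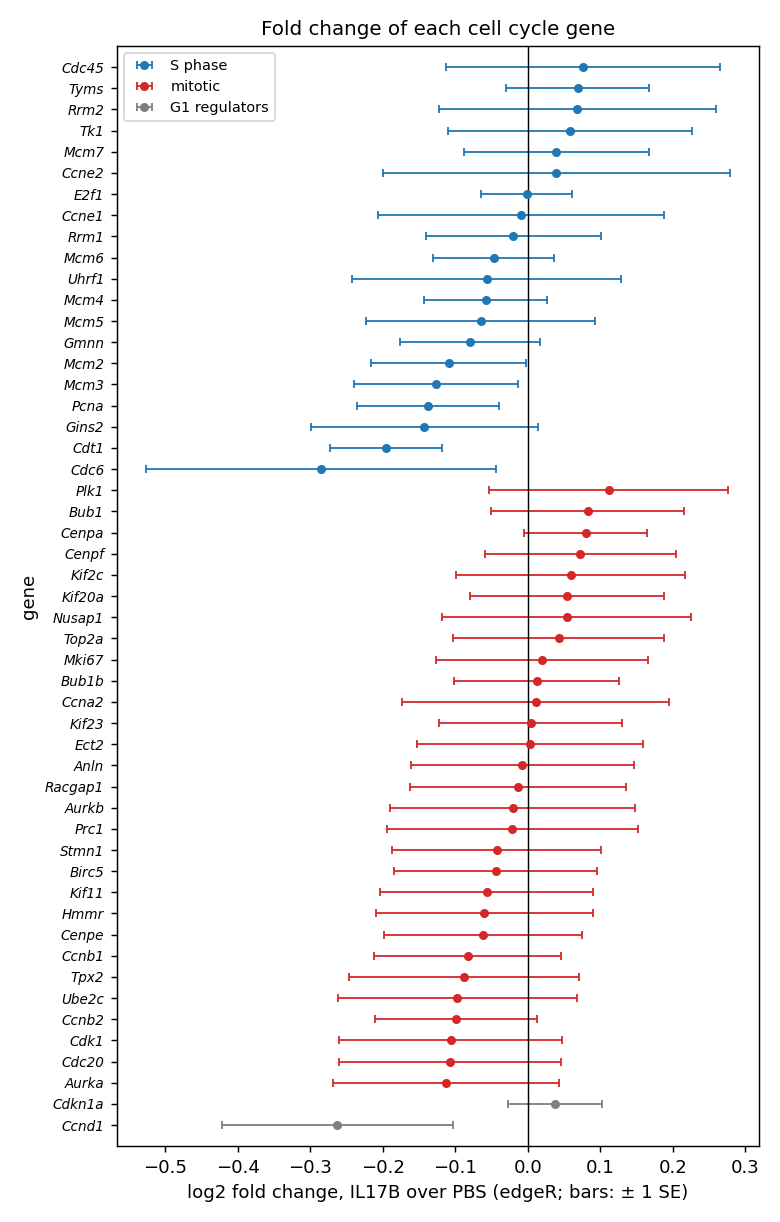
Log2 fold change, IL17B over PBS (x axis), of each of the 51 cell cycle genes (y axis), with bars of 1 SE from edgeR; blue marks the 20 S phase genes, red the 29 mitotic genes and grey the 2 G1 regulators. The points lie between -0.29 and 0.11, on both sides of 0 in each class.

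Helicase loading was covered by 11 genes, and their summed level was 334 ± 25.6 CPM with IL17B and 354 ± 55.8 CPM with PBS (SD, n = 3 each). Cdt1 (chr8:122568015-122573130) brings the MCM helicase to origins in G1. Its level was 45.8, 43.8 and 46.6 CPM with IL17B, against 58.9, 49.6 and 47.5 CPM with PBS. The IL17B values lay close together and all were under the lowest PBS value, though IL17B 3 and PBS 3 were nearly equal. For Cdt1 edgeR gave -0.20 on the log2 scale (SE 0.08), an unadjusted p of 0.0302 and an adjusted p of 0.941, so the difference did not hold over all genes tested. Without PBS 1 its log2 fold change was -0.09. Mcm6, a subunit of the helicase, was at 70.8, 66.6 and 76.4 CPM with IL17B and at 83.9, 68.9 and 68.0 CPM with PBS. Only PBS 1 stood above the IL17B values, and the log2 fold change was -0.05 (SE 0.08). Over the other helicase subunits Mcm2, Mcm3, Mcm4, Mcm5 and Mcm7, the fold changes ran from -0.13 (Mcm3) to 0.04 (Mcm7). The loading factor Cdc6 had the lowest fold change of all 51, -0.29 with an SE of 0.24, and its level was 4.51, 3.86 and 5.85 CPM with IL17B, against 7.44, 3.69 and 6.22 CPM with PBS. Both its highest and its lowest value came from PBS libraries. Cdc45 and Gins2, which join the MCM ring in the active helicase, had 0.08 and -0.14, and Gmnn, which holds Cdt1 inactive after replication has begun, had -0.08. Gins2 lies over Gse1 on the other strand along 70.3% of its sequence, and neither the labels nor the methods tell whether the reads kept their strand, so its value may hold reads of Gse1.

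The sliding clamp, nucleotide supply and the copying of chromatin were covered by 6 genes. Pcna (chr2:132249286-132253180), the clamp that holds the polymerases on DNA, was the most abundant cell cycle gene per length, at a mean of 305 TPM with IL17B and 334 TPM with PBS. In CPM, Pcna was at 172, 177 and 198 with IL17B, against 236, 181 and 185 with PBS. PBS 1 was the highest library and the other 5 lay closer together, with both treatments mixed. The log2 fold change was -0.14 (SE 0.10, edgeR adjusted p = 0.976), and -0.0015 without PBS 1. Rrm2, the regulated subunit of ribonucleotide reductase, was at 60.6, 54.9 and 68.9 CPM with IL17B, against 78.0, 39.7 and 58.2 CPM with PBS. Here the PBS libraries reached both above and below the IL17B libraries, and the log2 fold change was 0.07 (SE 0.19). Rrm1, the other subunit, Tk1 and Tyms, which make thymidine nucleotides, and Uhrf1, which guides the copying of DNA methylation, lay between -0.06 (Uhrf1) and 0.07 (Tyms).

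The factors of the G1/S transition were covered by 3 genes. E2f1, the activator of this programme, was the steadiest of all 51 genes: 37.9, 34.7 and 37.0 CPM with IL17B, and 38.9, 34.6 and 36.3 CPM with PBS. Its highest library was 1.13 times its lowest, and its log2 fold change was -0.0017 (SE 0.06). Ccne2, a cyclin of Cdk2 and a target of the E2F factors, had the widest range, with 9.61, 7.72 and 11.9 CPM with IL17B, against 12.7, 6.02 and 9.74 CPM with PBS. The highest library was 2.12 times the lowest, both were PBS libraries, and the log2 fold change was 0.04 (SE 0.24). Ccne1, the other cyclin E, averaged 6.60 TPM with IL17B and 6.60 TPM with PBS.

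The G1 regulators Ccnd1 and Cdkn1a had fold changes of opposite sign, neither of them called. Ccnd1 (chr7:144929931-144939831) encodes cyclin D1, which M-CSF induces in macrophages and which opens the way to E2F activity. It was at 54.1, 47.4 and 61.0 CPM with IL17B, against 84.3, 59.4 and 51.3 CPM with PBS. The groups overlapped, with PBS 1 far above the other 5 libraries. Its log2 fold change of -0.26 (SE 0.16, edgeR adjusted p = 0.973) was -0.03 without PBS 1. Cdkn1a encodes p21, an inhibitor of cyclin-dependent kinases and a target of p53, and was at 97.0, 97.3 and 99.7 CPM with IL17B, against 106, 90.7 and 89.4 CPM with PBS. The IL17B values lay inside the range of the PBS values, with a log2 fold change of 0.04 (SE 0.07). Ccnd1 shares 27.2% of its sequence with the gene LTO1 on the other strand.

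The cyclins and kinases that drive entry into mitosis were covered by 8 genes, with a summed level of 254 ± 36.3 CPM with IL17B and 259.9 ± 60.4 CPM with PBS (SD, n = 3 each). Ccna2, cyclin A2, was at 52.0, 50.4 and 74.0 CPM with IL17B, against 74.4, 44.5 and 56.1 CPM with PBS. IL17B 3 and PBS 1 were nearly equal and stood apart from the other 4 libraries, and the log2 fold change was 0.01 (SE 0.18). Birc5, survivin, a subunit of the chromosomal passenger complex, was at 29.7, 26.7 and 35.7 CPM with IL17B and 38.2, 26.0 and 30.7 CPM with PBS, with a log2 fold change of -0.04 (SE 0.14). Of the kinases, Cdk1, the partner of the mitotic cyclins, had -0.11, Aurka -0.11, Aurkb -0.02 and Plk1 0.11, each with an SE between 0.15 and 0.17. The B cyclins Ccnb1 and Ccnb2 had -0.08 and -0.10. In each of these kinases and B cyclins PBS 1 was the highest library and PBS 2 the lowest.

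The spindle checkpoint and the degradation that starts anaphase were covered by 4 genes. Ube2c, the ubiquitin carrier of the anaphase-promoting complex, was at 37.5, 38.7 and 50.1 CPM with IL17B, against 57.1, 34.7 and 43.4 CPM with PBS. Bub1b, the checkpoint kinase-like protein BubR1, was at 41.0, 38.3 and 46.0 CPM with IL17B and 48.8, 34.7 and 40.7 CPM with PBS. In both genes PBS 1 was highest and PBS 2 lowest, and the log2 fold changes were -0.10 (SE 0.16) and 0.01 (SE 0.11). Bub1 and Cdc20, the checkpoint kinase and the activator of the complex, had 0.08 and -0.11.

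Among the 3 centromere genes, Cenpa, the histone H3 variant that marks the centromere, was at 35.2, 37.4 and 38.1 CPM with IL17B and 39.6, 31.1 and 34.1 CPM with PBS. Its spread was the narrowest of the mitotic genes, at 1.27 times from lowest to highest, and the log2 fold change was 0.08 (SE 0.08). Cenpe, a kinesin of the kinetochore, was at 41.2, 31.7 and 43.7 CPM with IL17B, against 48.8, 35.7 and 37.2 CPM with PBS. IL17B 2 was its lowest library, and the log2 fold change was -0.06 (SE 0.14). Cenpf, another kinetochore protein, had 0.07.

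Spindle genes numbered 9, and the most abundant per length was Stmn1, which destabilizes microtubules, at a mean of 206 TPM with IL17B and 210.4 TPM with PBS. Stmn1 was at 103, 95.6 and 109.6 CPM with IL17B and at 135, 82.4 and 100.4 CPM with PBS. Prc1, which bundles the microtubules of the central spindle, was at 59.7, 52.4 and 73.1 CPM with IL17B, against 80.7, 47.4 and 60.0 CPM with PBS. For both genes the PBS libraries spanned more than the whole range of the IL17B libraries, and the log2 fold changes were -0.04 (SE 0.14) and -0.02 (SE 0.17). The kinesins Kif11, Kif20a, Kif23 and Kif2c and the spindle proteins Tpx2, Nusap1 and Hmmr lay between -0.09 (Tpx2) and 0.06 (Kif2c).

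Cytokinesis was covered by Racgap1 and Ect2, which set the place of the contractile ring, and Anln, its scaffold. Racgap1 was at 47.7, 44.9 and 58.9 CPM with IL17B, against 63.4, 40.5 and 49.1 CPM with PBS. Anln was at 39.4, 35.7 and 48.8 CPM with IL17B, against 52.0, 33.9 and 38.6 CPM with PBS. In both, PBS 1 was highest, IL17B 3 came next and PBS 2 was lowest, and their log2 fold changes were -0.01 (SE 0.15) and -0.0078 (SE 0.15). Ect2 had 0.0028.

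Mki67 (chr7:135689784-135716450) encodes Ki-67, the usual marker of cycling cells, and Top2a (chr11:98992947-99024199) the topoisomerase that untangles sister chromatids. Mki67 was at 288, 212 and 303 CPM with IL17B, against 316, 220.2 and 256 CPM with PBS. Top2a was at 166, 139 and 189.9 CPM with IL17B, against 199, 132 and 151 CPM with PBS. In both genes the second library of each treatment was the lowest of its 3, and the groups overlapped. The log2 fold changes were 0.02 (SE 0.15, adjusted p = 0.998) for Mki67 and 0.04 (SE 0.15, adjusted p = 0.995) for Top2a, both by edgeR.

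The pattern that the genes shared was the order of the libraries. PBS 1 was the highest of the 6 libraries for 47 of the 51 genes (92.2%), beside 19.2% of the 10411 genes with a mean of at least 3 CPM. IL17B 3 was the highest for the other 4 (Cenpf, Ect2, Kif2c and Tyms), or 7.84%, beside 14.4% of those genes. PBS 2 was the lowest library for 33 of 51 (64.7%), beside 19.0% of those genes, and IL17B 2 for another 14 (27.5%), beside 16.6%. Within IL17B, library 3 was above library 2 for 51 of 51 genes, beside 51.3% of those genes. Within PBS, library 1 was above library 2 for 51 of 51, beside 48.4%. The genes of a cell cycle programme are not independent of each other, so these counts describe libraries and were not tested. The pairs compared within a treatment are its highest and lowest library in the summed levels of these same genes. This choice of pairs raises both counts of 51 of 51, and the shares over other genes were not raised in this way.

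**Figure D2:**
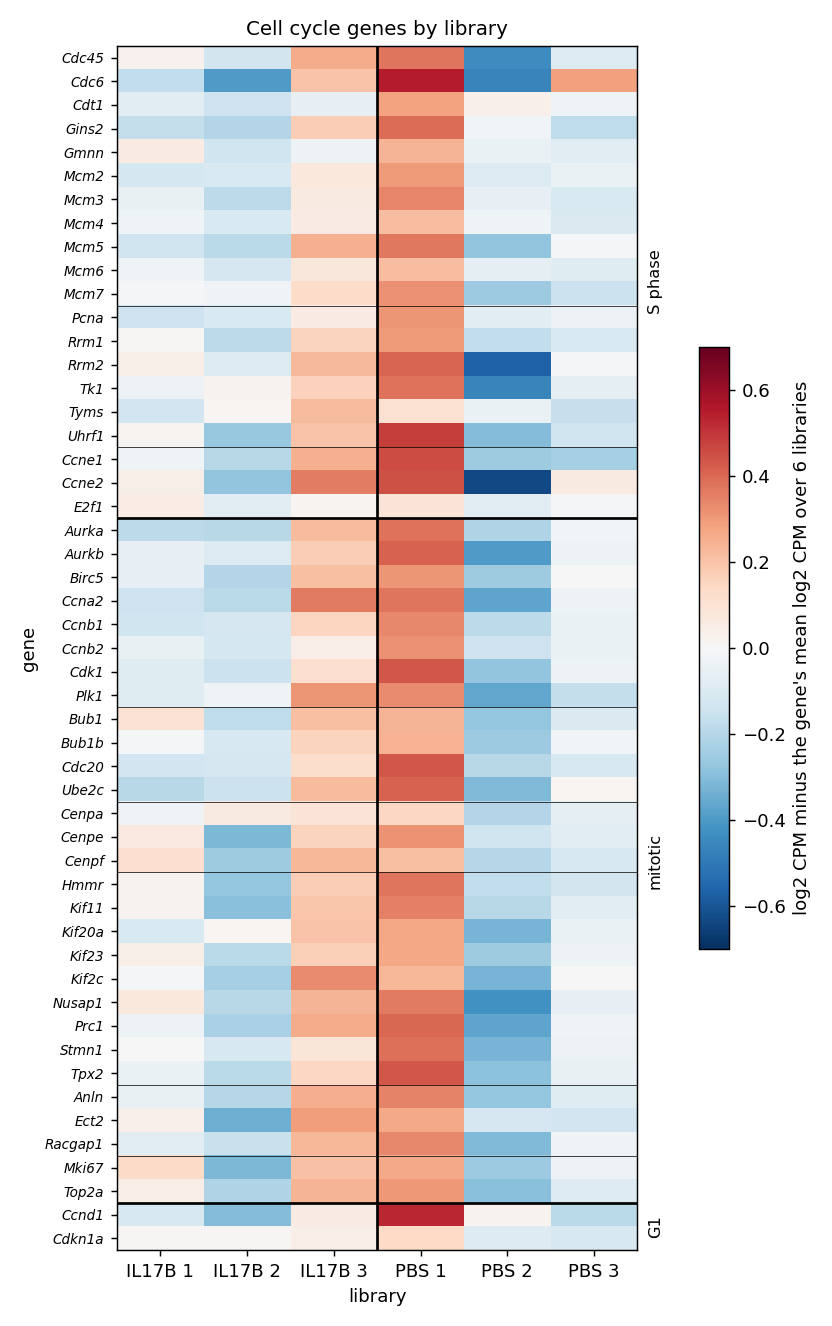
Log2 CPM of each cell cycle gene (rows, grouped by role) in each library (columns, IL17B 1 to 3 left of PBS 1 to 3), minus the mean of that gene's log2 CPM over the 6 libraries. Red is above and blue below that mean; PBS 1 is the highest library for 47 of the 51 rows, and the IL17B and PBS columns do not separate.

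The summed S phase level was 779, 744 and 873 CPM in IL17B 1, 2 and 3, against 999, 727 and 772 CPM in PBS 1, 2 and 3. The summed mitotic level was 1469, 1277 and 1682 CPM in IL17B 1, 2 and 3, against 1827, 1209 and 1406 CPM in PBS 1, 2 and 3. The order of the libraries was the same in both classes: PBS 1, IL17B 3, IL17B 1, PBS 3, IL17B 2 and PBS 2, from high to low. The class means were 798 ± 66.7 CPM with IL17B and 833 ± 146 CPM with PBS for S phase, and 1476 ± 202 CPM with IL17B and 1481 ± 316 CPM with PBS for mitosis (SD, n = 3 each). The log2 ratios of the means were -0.06 and -0.0049, and both were smaller than the SD between libraries of a treatment, 0.19 and 0.26 on the log2 scale. In summed TPM the mitotic order was unchanged, and in the S phase order PBS 2 and IL17B 2 changed places at the low end, with 749 TPM in IL17B 2 and 759.8 TPM in PBS 2.

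**Figure D3:**
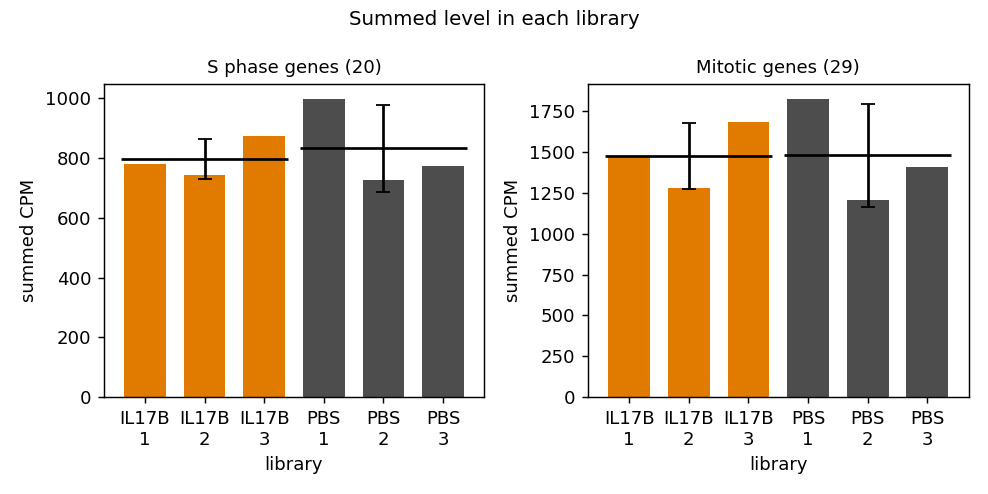
Summed CPM (y axis, from 0) of the 20 S phase genes and the 29 mitotic genes in each library, IL17B in orange and PBS in grey; the horizontal lines are the means of the 3 libraries of a treatment and the bars are 1 SD. PBS 1 is the highest library in both panels, with 999 and 1827 CPM, and PBS 2 the lowest, with 727 and 1209 CPM.

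The mitotic sum moved further between these libraries than the S phase sum. IL17B 3 over IL17B 2 was 1.32 for the mitotic sum and 1.17 for the S phase sum, and PBS 1 over PBS 2 was 1.51 and 1.38. The mitotic level over the S phase level was 1.89, 1.72 and 1.93 in IL17B 1, 2 and 3, against 1.83, 1.66 and 1.82 in PBS 1, 2 and 3. The second library was the lowest in both treatments, and the means were 1.84 ± 0.11 with IL17B and 1.77 ± 0.09 with PBS (SD, n = 3 each), a difference smaller than the SD. Among single genes, PBS 1 over PBS 2 ran from 1.11 (Tyms) to 2.12 (Ccne2), and was 2.02 for Cdc6 and 1.96 for Rrm2. The median CV between libraries of a treatment was 14.9% with IL17B and 21.4% with PBS for the mitotic genes, and 9.98% with IL17B and 19.7% with PBS for the S phase genes. Over the 10411 genes with a mean of at least 3 CPM it was 4.99% with IL17B and 5.36% with PBS.

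**Figure D4:**
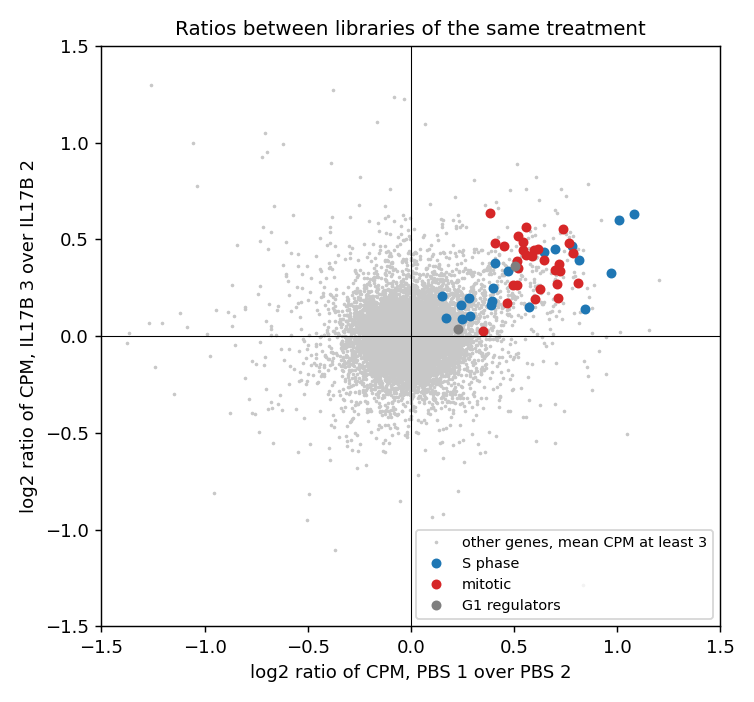
Log2 ratio of CPM for IL17B 3 over IL17B 2 (y axis) against PBS 1 over PBS 2 (x axis), for the cell cycle genes in colour and for other genes with a mean of at least 3 CPM in grey; 4 grey genes lie outside the axes. All 51 cell cycle genes lie above 0 on both axes. Each axis sets the highest over the lowest library of a treatment by the summed levels of these genes, which favours values above 0.

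The direction of the small differences depended on single libraries. This follows from the order of the libraries and is not a separate result. PBS 1 was the highest PBS library for 51 of the 51 genes, and IL17B 3 the highest IL17B library for 49. Leaving out PBS 1 therefore raises these fold changes, and leaving out IL17B 3 lowers them. With all 6 libraries, 20 of the 51 fold changes were above 0, and with IL17B 1 left out, 22. It was 34 without IL17B 2, 2 without IL17B 3, 47 without PBS 1, 3 without PBS 2 and 14 without PBS 3. The median log2 fold change of the mitotic genes was 0.17 without PBS 1 and -0.15 without PBS 2, and that of the S phase genes was 0.09 without PBS 1 and -0.14 without PBS 2. None of the 51 genes was called in any of these fits. Over all genes, 86 of 13636 were called without IL17B 1 and 0 in each of the others, so this tells little about the cell cycle genes. A further fit left out both libraries that held hepatocyte transcripts, which leaves IL17B 1 alone against the 3 PBS libraries. In it, 15 of 51 fold changes were above 0, and the medians were -0.06 for S phase and -0.05 for mitosis. That fit assumes that the lone library varies like the PBS libraries. Of the libraries with hepatocyte transcripts, IL17B 3 (83.2 CPM) ranked second highest in both summed cell cycle levels in CPM and IL17B 2 (233 CPM) second lowest. The highest and the lowest library in summed CPM, PBS 1 and PBS 2, had 1.02 and 1.16 CPM of hepatocyte markers. In summed S phase TPM, IL17B 2 was the lowest library. Whether hepatocyte transcripts bear on the order of the libraries was not tested.

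**Figure D5:**
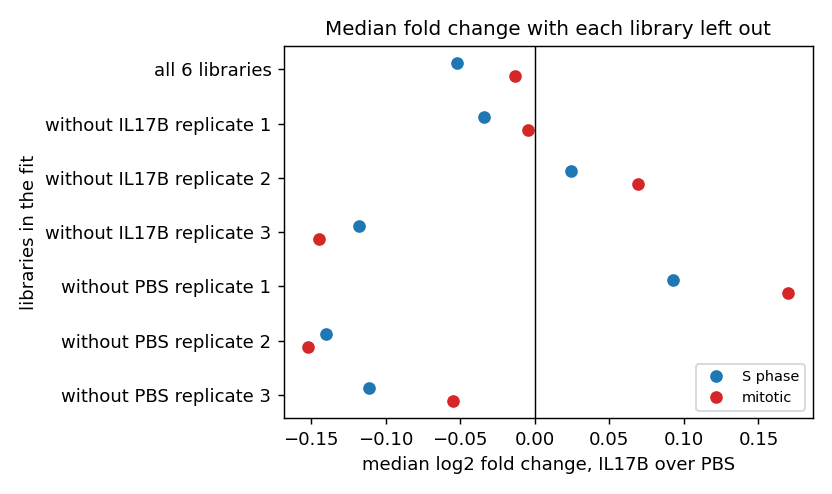
Median log2 fold change, IL17B over PBS (x axis), of the S phase genes (blue) and the mitotic genes (red) with all 6 libraries and with each library left out in turn (y axis). Both medians lie above 0 without PBS 1 or without IL17B 2 and below 0 in the other fits. These shifts follow from the order of the libraries.

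Other genes of the same pathways, which were not on the list, had 0 calls too, but edgeR called 0% of all genes, so these counts tell nothing about the pathways. Of 51 further genes of the replication fork and origins, 0 were called by edgeR, with 21 fold changes above 0, 30 below and a median of -0.02. Of 80 further mitotic genes, 0 were called, with 47 above 0, 33 below and a median of 0.0085. Of 29 genes of G1 control with the E2F and Rb families, 11 CDK inhibitors and antiproliferative genes and 16 p53 targets, 0 were called in each group, and the medians were -0.04, 0.01 and 0.00092. Among genes with a mean of at least 3 CPM, PBS 1 was the highest library for 75.5% of the 49 further replication genes. The share was 80.8% for the 78 further mitotic genes, beside 19.2% of all genes at that level.

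Several cell cycle genes share sequence with a gene on the other strand, as stretches of 50 bases found in the transcripts of both. The share of the gene was 27.3% for Kif20a, 16.5% for Prc1, 14.0% for Ube2c, 12.8% for Ccna2, 7.51% for Ccne2 and 5.85% for Mcm7. For 21 of the 51 genes at least 1 library had an estimate that was not a whole number, as RSEM gives where it divides reads between genes. The levels of these genes are less certain than those of the others.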

How the data were processed

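Bulk RNAseq was done on poly(A)-selected RNA of BMDM, 3 libraries for each treatment, read as single ends of 50 bases. After read filtering, the authors used HISAT2 2.0.4 (genome, GRCm38) and Bowtie2 2.2.5 (coding genes) for alignment, and deposited the estimated count per gene from RSEM 1.2.12. The TPM values, which divide by gene length, were deposited by the authors from the same RSEM run. The submitters' notes also name DESeq2 1.4.5. Deposited FPKM values were not used. The labels call the second group control, and the paper's methods give PBS. Neither tells if the libraries of a treatment stem from separate mice or cultures, and a p-value then measures only the spread between libraries, perhaps a technical one.

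Estimated counts were rounded. Genes whose 6 libraries added up to 15 counts or more entered edgeR 4.0.16 under R 4.3.3, with TMM factors and the two-sided quasi-likelihood test, and were called at a Benjamini-Hochberg adjusted p of 0.05 or less. CPM values are counts over the TMM-normalized library size. Alternatives were DESeq2 1.42.0, limma-voom with quality weights and limma on log2(TPM + 0.1) (limma 3.58.1), other size factors, other filters, a replicate block and each library left out. The steps were tested on simulated counts.

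The list of 51 genes, the pathway and marker lists and the tests were chosen with earlier results of these data known. Values in each library are given for the 2 genes of highest mean TPM in each role group, for Mki67, Top2a, E2f1, Ccnd1 and Cdkn1a, and for genes with an unadjusted p under 0.05 or groups that did not overlap. Cdc6, the gene with the lowest fold change, was added after its values were seen. Gene names, coordinates and promoters come from RefSeq on GRCm38.p6.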

Additional observations from a re-analysis of the deposited data

How the results depend on the processing

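No cell cycle gene was called higher or lower under any alternative. Over all genes, DESeq2 called 6 higher, limma on log2(TPM + 0.1) called 1 higher, and the counts with a library left out ran from 0 to 77 higher and from 0 to 9 lower, with the highest counts, 77 and 9, without IL17B 1. With the replicate block 74 genes were called higher and 2 lower, and no cell cycle gene among them. The labels do not say whether libraries with the same number are paired. Deviations of such libraries from their group means correlated at 0.0055, 0.03 and -0.0066 over all genes tested. Over the cell cycle genes the values were -0.17, 0.35 and 0.24, and IL17B 3 with PBS 1 gave 0.56. With only 3 libraries a treatment, these correlations cannot decide whether the libraries were paired. The replicate block put Anln at 0.0012.

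Fold changes near 0 changed sign, all without a call. With each library left out in turn, the lowest and highest log2 fold changes were -0.15 and 0.095 for Cenpe, -0.10 and 0.15 for Bub1b, -0.26 and 0.11 for Ube2c, -0.10 and 0.17 for Mki67, -0.083 and 0.23 for Top2a, -0.14 and 0.19 for Anln, -0.16 and 0.18 for Racgap1, -0.19 and 0.20 for Prc1, -0.20 and 0.17 for Stmn1, -0.17 and 0.12 for Birc5, -0.19 and 0.23 for Ccna2, -0.0078 and 0.12 for Cdkn1a, -0.15 and 0.33 for Rrm2, -0.21 and 0.31 for Ccne2, -0.042 and 0.047 for E2f1, and -0.10 and 0.060 for Mcm6. In each of these the highest value came without PBS 1. With limma-voom, Anln was at 0.020, Racgap1 at 0.012, Prc1 at 0.012 and E2f1 at 0.0024. With limma on TPM they were at 0.0041, 0.0058, 0.00060 and 0.0063. E2f1 was at 9.7e-05 with DESeq2 size factors, 0.00023 with library totals and 9.5e-05 with DESeq2. In the fit without IL17B 2 and 3, added after seeing the data, Cenpe was at 0.020, Bub1b at -0.017, Ccna2 at -0.17 and E2f1 at 0.048. The cause of these changes was not tested. The log2 ratio of the summed levels, -0.06 for S phase and -0.0049 for mitosis with all libraries, was 0.09 and 0.17 without PBS 1. Leaving out 1 of 3 libraries can move a group mean by only part of its SD, so these shifts say nothing about stability. At 3 libraries a treatment, differences within the SE given for each gene, and also somewhat larger ones, were not detectable.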
